A study of Mus musculus with 3 samples.

Results

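Mature B cells were taken from single-cell 3′ RNA counts of the mouse cochlea by the UMIs of a few genes. A UMI is a molecular tag, and each tag counts 1 captured RNA molecule. A barcode was a member if it had at least 500 UMIs, at least 200 genes and at most 20% mitochondrial UMIs, with at least 2 UMIs of Cd79a and at least 1 of Ms4a1. It also had to have 0 UMIs of Igll1, Vpreb1 and Rag1, which mark B cell precursors, and 0 of Cd3d, Cd3e and Cd3g, which mark T cells. Of 37188 barcodes that passed the quality filters, 601 were members. The members were thus chosen by measured values, and the levels of these 8 genes in them are a description only.

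The study held C57BL/6J mice in 3 groups. Control mice had no noise, HHL mice (hidden hearing loss) had 110 dB for 2 h, and NIHL mice (noise-induced hearing loss) had 115 dB for 4 h for 3 days. Tissue was taken 6 h after exposure ended. Each group gave 1 library of 10x 3′ gene expression, made from the cochleae of 6 mice. All cells stand in 1 table in which a numeric suffix of the barcode separates 3 libraries, and no label ties a suffix to a group. They are therefore called library 1, 2 and 3, and the noise groups could not be compared. Every difference given is between 3 single libraries, without a test. Intervals are 95% and cover counting error only.

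B cells carry an immunoglobulin on their surface, made of heavy and light chains and held by Cd79a and Cd79b, which pass its signal into the cell. Precursors form in bone marrow, where they divide, rearrange their receptor genes and use a surrogate light chain (Igll1, Vpreb1). Cells that leave this stage carry IgM and then IgD as well, take up antigen and show it to T cells on MHC class II. After activation they can become plasma cells, which secrete antibody.

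Library 1 held 178 members of 16883 barcodes, library 2 held 143 of 9602 and library 3 held 280 of 10703. These are shares of 1.05% (0.906 to 1.22), 1.49% (1.26 to 1.75) and 2.62% (2.32 to 2.94) by exact Clopper-Pearson intervals, which do not overlap. Library 3 thus had the highest share and library 1 the lowest. With every barcode thinned to 1000 UMIs before the rule was applied, the shares were 0.585%, 0.601% and 1.499%, so libraries 1 and 2 stood close together and library 3 was still the highest. Members had a median of 3389, 3180 and 3632 UMIs, against 5464, 6293.5 and 8098 over all filtered barcodes of libraries 1, 2 and 3. Their median mitochondrial share was 5.49%, 4.29% and 4.16%. No member barcode of 1 library was a member in another library. Members of library 1 were not found among the filtered barcodes of libraries 2 and 3, nor members of library 2 among those of library 3. The reverse was not checked.

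The label was checked with genes that the rule did not use. Ighm, the heavy chain of IgM, had a UMI in 98.9%, 98.6% and 99.6% of members in libraries 1, 2 and 3. Igkc, the kappa light chain, had one in 95.5%, 98.6% and 95.4%. Cd79b was found in 97.2%, 97.2% and 97.9%, and the B cell transcription factors Pax5 and Ebf1 in 83.1%, 76.2% and 75.7% and in 80.3%, 97.2% and 89.3%. Cd74, the invariant chain of MHC class II, had a UMI in 98.9%, 99.3% and 98.9% of members. In T cells of the same libraries (at least 2 UMIs of the CD3 genes and 0 of Cd79a), Ighm had a UMI in 41.3%, 44.1% and 51.7% and Igkc in 15.7%, 19.9% and 5.8%, so a UMI of either gene does not by itself mark a B cell. In the same T cells Ebf1 had a UMI in 1.74%, 4.04% and 3.38%, Pax5 had a UMI in 0%, 0% and 0.483% and Cd74 in 7.56%, 11.8% and 16.4%. Each of these genes was found in a larger share of members than of T cells.

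Markers of other lymphoid cells were at or near 0. Cd4 and Cd8a had 0 UMIs in all members, and the 9 genes of the T cell list summed to 3.29, 5.54 and 4.16 CPM (a gene's UMIs per 1000000 UMIs, summed over the members of a library). The rule set Cd3d, Cd3e and Cd3g to 0, so any of them in this list could add nothing to its sum. The 5 genes of the natural killer list summed to 0, 4.16 and 2.38 CPM, and the 5 of the plasmacytoid dendritic list to 9.87, 12.5 and 10.7 CPM. Rag2 and Vpreb2, which precursors use and which were not in the rule, were at 0 UMIs in every library, which allows up to 3 UMIs.

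Maturity was less uniform than lineage. Ighd, the heavy chain of IgD and the third marker of the label, had a UMI in 102 of 178, 110 of 143 and 166 of 280 members, or 57.3% (49.7 to 64.7), 76.9% (69.1 to 83.6) and 59.3% (53.3 to 65.1). With each cell thinned to 1000 UMIs the shares were 26.1%, 46.5% and 28.2%, with 2, 1 and 3 shallower members left out. T cells, whose median depth was 5044, 5125 and 6346 UMIs, had a UMI of Ighd in 0.872%, 3.03% and 0.966%. Library 2 was the highest in both readings, and libraries 1 and 3 had overlapping intervals. Pro-B and pre-B cells, defined by at least 2 UMIs of Cd79a and at least 1 of the 3 precursor genes, had thinned shares of 9.82%, 9% and 5.05%, below all 3 libraries of members. Vpreb3, which is used by immature B cells, had a UMI in 68.5%, 60.8% and 70% of members. T cells had one of it in 0.581%, 1.01% and 0.966%. After thinning to 1000 UMIs Vpreb3 was in 34.1%, 31.7% and 35.7% of members and in 68.1%, 70% and 80.8% of pro-B and pre-B cells. Cd93, a marker of transitional cells, was found in 16.3%, 13.3% and 13.6% of members and in 9.3%, 9.76% and 9.18% of T cells. After thinning to 1000 UMIs it was in 4.55%, 3.52% and 3.97% of members and in 1.17%, 2.02% and 0.966% of T cells. Members thus had the larger share in each library, with intervals that overlapped those of T cells. Pro-B and pre-B cells had thinned shares of Cd93 of 18.4%, 20% and 20.2%, above those of members. Absence of Igll1, Vpreb1 and Rag1 was set by the rule and is no support for the label "mature". Beyond the rule, a UMI of Ighd was found in a majority of members before thinning and in a minority after it. Vpreb3 was present in many members.

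The values near the thresholds were as follows. The 34 members with exactly 2 UMIs of Cd79a had Ighd in 55.9%, and the 30 barcodes left out with exactly 1 UMI had it in 33.3%. The 52 members with exactly 1 UMI of Ms4a1 had Ighd in 65.4%, and the 92 barcodes left out with 0 UMIs of Ms4a1 had it in 32.6%. The 92 had a median of 1.5 UMIs of Cd74, against 21 in members. A further 30 barcodes were left out by the precursor genes and 15 by the CD3 genes alone.

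RNA of other lineages was present in the member barcodes and was concentrated in few of them. A list of 10 neutrophil genes made up a median of 0.532%, 0.311% and 0.562% of a member's UMIs, but 5.3%, 2.9% and 4.17% of the summed UMIs. The tenth of members with the most of it held 81.6%, 92.9% and 91.8% of these UMIs. S100a8, a calcium-binding protein of neutrophils, had a UMI in 97.8%, 98.6% and 100% of members and in 98.3%, 99.3% and 100% of T cells. Hbb-bs, a beta globin of red cells, had a UMI in 12.9%, 100% and 94.6% of members and in 21.5%, 100% and 97.6% of T cells. Its low share in library 1 was thus shared by both cell types. Doublet calling with scrublet marked 29, 8 and 17 members. Together with members in which myeloid lists passed 2% of UMIs or a stromal list reached 10 UMIs, 41, 15 and 32 members were counted as mixed. An erythroid list of 7 genes was not part of this mark. It passed 2% of UMIs in 0, 4 and 4 members, and library 2 barcodes at 53.8% and 56.5% stayed among the unmixed. Main results are given for all members and, where the value moved, without the mixed ones (unmixed: 137, 128 and 248 members).

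**Figure D1:**
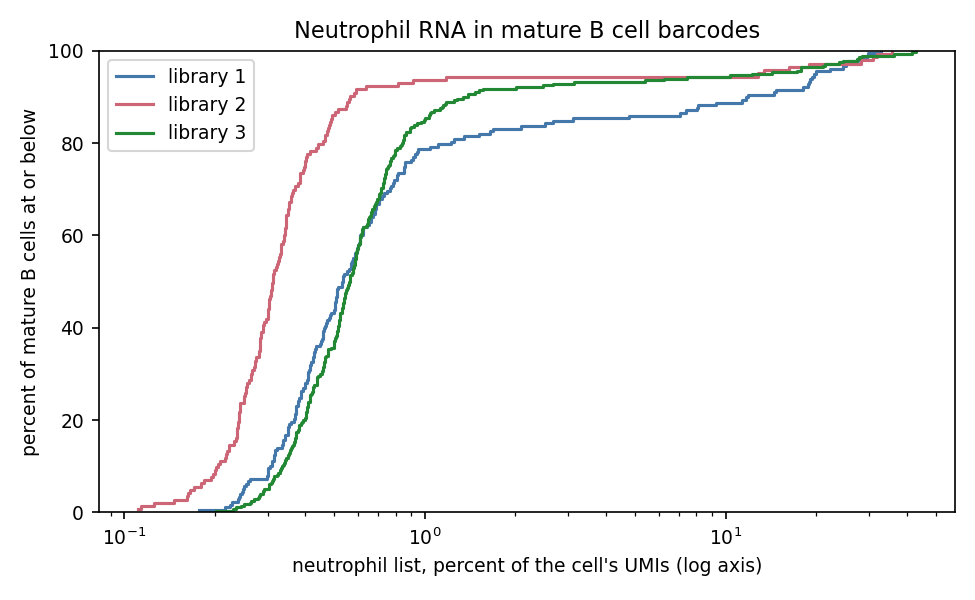
Cumulative share of mature B cells (vertical axis, percent) at or below a given share of UMIs from 10 neutrophil genes (horizontal axis, percent, log scale), 1 line per library. Most members lie below 1% in each library, and an upper tail, which holds the largest share of members in library 1, reaches 32.8%, 35.9% and 43% in libraries 1, 2 and 3.

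The antibody genes were those of unswitched B cells. Ighm stood at 6391, 3285 and 3275 CPM in libraries 1, 2 and 3, and Ighd at 257, 539 and 257 CPM. The level of Ighm in library 1 rested in part on 1 barcode with 1988 of its 5829 UMIs. Ighg1 and Ighe had 0 UMIs in all 3 libraries. Igha had a UMI in 21, 4 and 6 members, at no more than 2 UMIs in any. Ighg2b had 438, 1189 and 9 UMIs, of which 1 barcode held 437 in library 1 and another held 1177 in library 2.

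The antibody-rich barcodes were 3 in number, each with at least 50 UMIs of Jchain, the joining chain of secreted antibody. The first, in library 1, had 378 UMIs of Jchain, 1988 of Ighm and 1836 of Igkc. The second, also in library 1, had 90 of Jchain, 437 of Ighg2b and 1050 of Igkc, and both were called doublets. The third, in library 2, had 209 of Jchain, 1177 of Ighg2b, 2215 of Igkc and 22 of Tnfrsf17, the receptor BCMA of plasma cells, and was not called a doublet. None of the 3 had a UMI of Ighd. All Jchain of library 2 lay in that 1 barcode, and library 3 had 2 UMIs of Jchain in all.

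Both light chain types were read in most members. Among members with at least 10 light chain UMIs, 123 of 163, 114 of 132 and 221 of 270 had between 10% and 90% kappa. These are 75.5% (68.1 to 81.9), 86.4% (79.3 to 91.7) and 81.9% (76.7 to 86.3). A kappa share of at least 90% was found in 33, 14 and 32 members, and of at most 10% in 7, 4 and 17. Without the mixed members the shares with both types were 73.4%, 85.6% and 81.1%. The lambda constant genes had a median of 6, 9 and 10 UMIs in a member, and kappa 16.5, 19 and 26. Iglc1 had a UMI in 59.6%, 60.8% and 73.2% of members, but in 0%, 0% and 0.483% of T cells, and Iglc3 in 75.3%, 80.4% and 85.7% against 0.291%, 0.337% and 0%. The shares with Iglc1 and Iglc3 were thus higher in members than in T cells. Whether single cells expressed both light chain types was not tested. For Igkc the T cell shares given above were below those of members. Iglc2 and Iglc3 are near-identical copies, so how UMIs were divided between them is uncertain. Summed over members, kappa made up 80.2%, 75.7% and 65.6% of light chain UMIs. Without the 3 antibody-rich barcodes, which held 2886 of 6018 Igkc UMIs in library 1 and 2215 of 5381 in library 2, these were 68.9%, 65.9% and 65.6%, and the libraries stood close together. Iglc1 stood at 493, 656 and 1051 CPM.

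**Figure D2:**
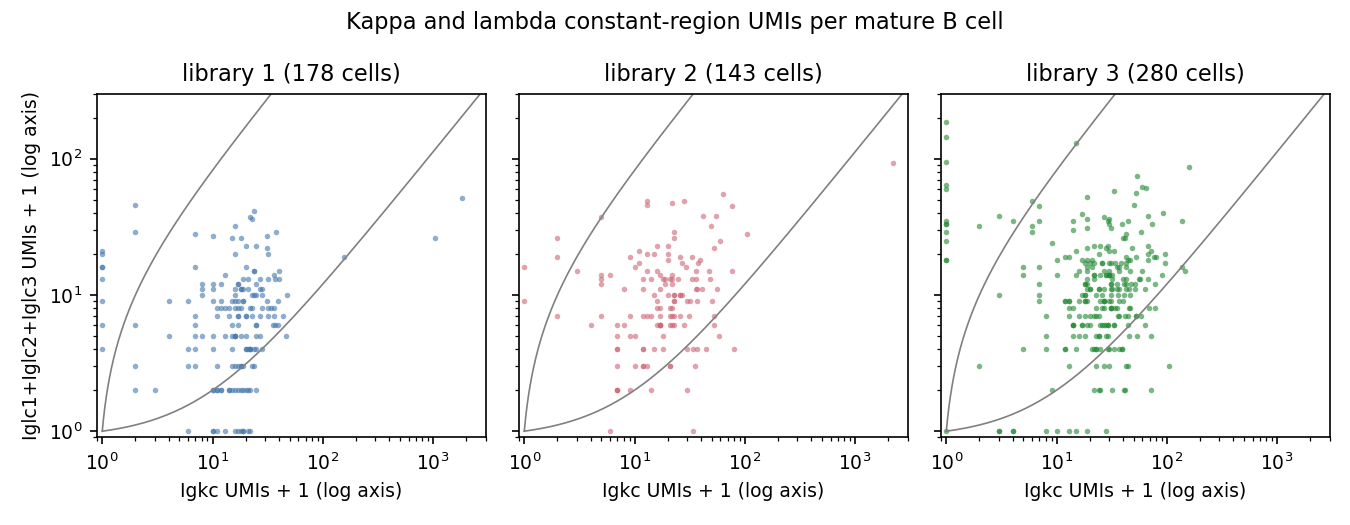
UMIs of Igkc (horizontal axis) and of Iglc1, Iglc2 and Iglc3 together (vertical axis), each plus 1 and on log scales, with 1 point per mature B cell and 1 panel per library. The grey curves mark 90% kappa (lower right) and 10% kappa (upper left), and 123, 114 and 221 members with at least 10 light chain UMIs lie between them.

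Variable region genes were seldom read. A UMI of any of 185 Ighv genes was found in 18, 23 and 36 members, and a heavy chain variable gene with at least 3 UMIs in 1, 2 and 0. No statement on clones can be made at this depth.

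A part of the members carried RNA of cell division. Members with at least 3 UMIs of Mki67, a protein of dividing cells, and Top2a, a topoisomerase of the cell cycle, are called cycling here, and those with 0 UMIs non-cycling. This division was chosen after the values were seen. Cycling members numbered 66 of 178 in library 1, 15 of 143 in library 2 and 69 of 280 in library 3, or 37.1% (30 to 44.6), 10.5% (5.99 to 16.7) and 24.6% (19.7 to 30.1). Non-cycling members numbered 91, 100 and 143, and the remaining 21, 28 and 68 had 1 or 2 UMIs. Without mixed members the cycling shares were 30.7%, 8.59% and 21.8%. With each cell thinned to 1000 UMIs they were 17%, 3.52% and 11.6%. Library 1 was the highest and library 2 the lowest in all 3 readings. The cut is a point on a range: 5, 4 and 11 members had 2 UMIs and 5, 0 and 5 had 3. Cycling members were deeper, with a median of 6307.5, 8344 and 9337 UMIs against 2181, 2926 and 3018 in non-cycling ones.

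The cycling members carried the B cell genes at lower CPM in sums over cells, in which deep barcodes weigh more. Unmixed cycling members included 1 barcode of 49917 UMIs, with 41 of Ighm, in library 1. Library 2 had 1 of 25485 UMIs, with 10 of Ighm, among its 11. The ratios below were not computed without these barcodes. In unmixed members the ratio of non-cycling to cycling CPM was 2.14, 3.47 and 2.50 for Ighd in libraries 1, 2 and 3, and 2.68, 3.37 and 3.06 for Bach2, a repressor that holds B cells back from plasma cell fate. For Cd74 it was 1.63, 2.20 and 2.24, and for H2-Aa, an MHC class II alpha chain, 1.27, 2.87 and 1.98. Fcer2a, the low-affinity IgE receptor CD23 of follicular B cells, stood at 135, 163 and 91.4 CPM in non-cycling and 39.8, 0 and 11.6 CPM in cycling unmixed members. Cd79a had ratios of 1.27, 1.35 and 1.67, but the rule's minimum of 2 UMIs is a higher CPM in shallow cells. Its ratio is thus a description only. Cd79b, which the rule did not use, had ratios of 2.04, 1.59 and 1.97. Lower CPM in cycling members was thus not particular to the genes of maturity. Hspa8, a chaperone, went the other way at 0.57, 0.58 and 0.86. Cd24a did so in libraries 2 and 3 (0.42 and 0.56) and was at 1.03 in library 1. A UMI of Ighd was nonetheless found in 42 of 66, 12 of 15 and 47 of 69 cycling members. Without mixed members it was found in 29 of 42, 9 of 11 and 39 of 54. Barcodes with a UMI of Ighd were thus among the cycling ones in each library. Whether such a barcode held 1 dividing cell or RNA of more than 1 cell was not tested.

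**Figure D3:**
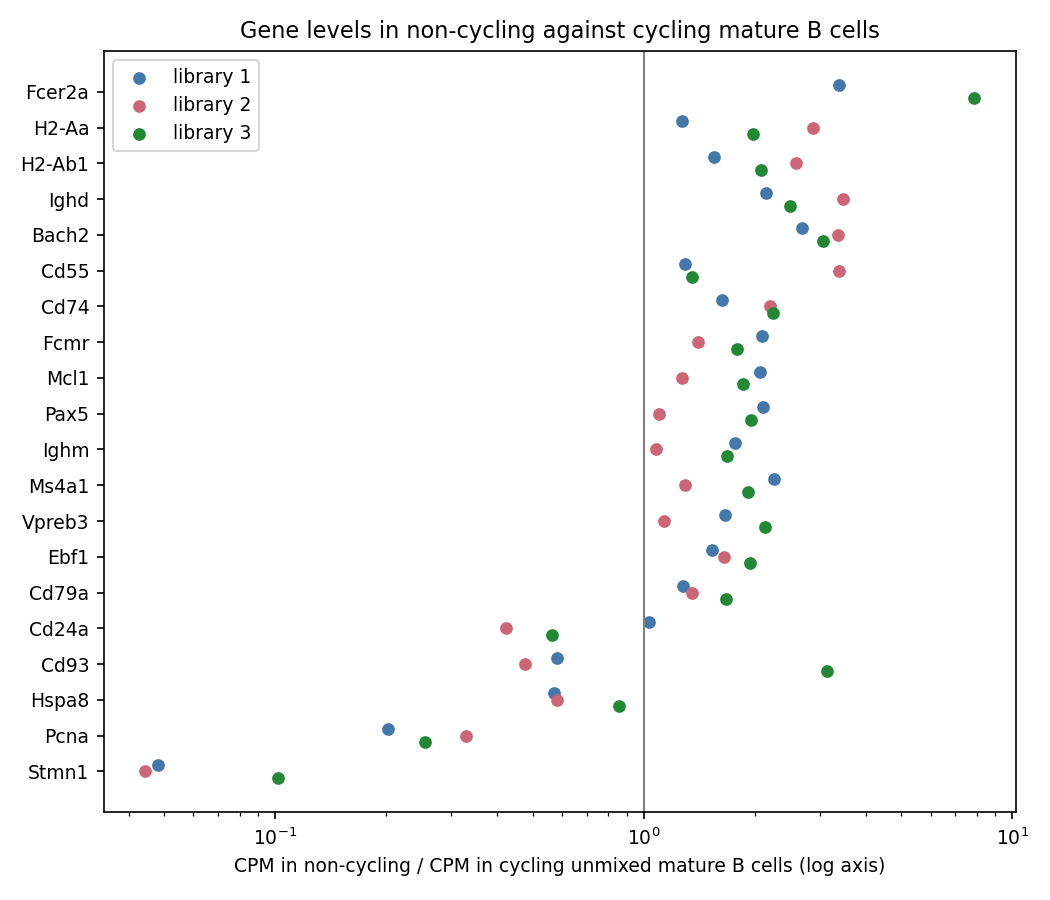
Ratio of CPM in non-cycling to CPM in cycling unmixed mature B cells (horizontal axis, log scale) for 20 genes, 1 point per library. Fcer2a, Ighd, Bach2 and the MHC class II genes lie to the right of 1 in each library with a value, Stmn1 and Pcna, genes of the cell cycle, lie to the left, and library 2 has no ratio for Fcer2a because its 11 cycling members held 0 UMIs.

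Members were next compared between libraries by summed UMIs. A gene was called higher in a library if its CPM was at least 2-fold above both other libraries, and lower if it was at most 1/2 of both, over 9382 genes with at least 20 summed UMIs. Of these, 182 (1.94%), 314 (3.35%) and 143 (1.52%) were higher in libraries 1, 2 and 3. In the other direction 298 (3.18%), 385 (4.1%) and 154 (1.64%) were lower. These shares are the background for the counts of gene lists below. For a list, the median is taken over its genes' log2 ratios, each ratio being that of 1 library to the geometric mean of both others. Over all tested genes the median was 0.12, -0.07 and -0.02 in libraries 1, 2 and 3. In bulk sums of this kind, fewer cells with a gene's RNA and less of that RNA per cell cannot be told apart unless the share of cells is given too.

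The genes that make a B cell differed little by this rule. Of 12 genes of the B cell receptor and its coreceptors, of 18 genes of receptor signalling and of 16 B cell transcription factors, 0 were called in any library in either direction. Cd79b stood at 1138, 1011 and 1112 CPM. Cd22, an inhibitory coreceptor, was at 140, 139 and 122 CPM. Syk, the kinase next to the receptor, was at 329, 362 and 263 CPM, and Btk at 92.1, 99.8 and 81.5 CPM. Among the transcription factors, Mef2c was at 661, 780 and 452 CPM and Pax5 at 478, 378 and 341 CPM. Prkcb, a kinase that links the receptor to NF-kB, was at 193, 250 and 111 CPM and was not called. Of 7 immature and transitional genes 5 were tested and 0 called.

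Survival and homing receptors were uneven in a few genes. Of 20 tested, 0, 3 and 0 were higher in libraries 1, 2 and 3 (medians -0.10, 0.24 and -0.12), and 1, 0 and 0 were lower. Gpr183, an oxysterol receptor that places B cells in lymphoid tissue, stood at 8.77 (3.79 to 17.3), 47.1 (32.6 to 65.9) and 11.3 (6.81 to 17.7) CPM, from 8, 34 and 19 UMIs. Ccr6, a chemokine receptor of mature B cells, was at 2.19, 31.9 and 4.16 CPM, from 2, 23 and 7 UMIs. Lta, the cytokine lymphotoxin alpha, was the other gene higher in library 2 and was also lower in library 1, at 2.19, 16.6 and 4.76 CPM. All 3 are low genes, and library 2 had a UMI of Gpr183 in 16.8% of members against 3.37% and 4.64%. Tnfrsf13c, the BAFF receptor on which mature B cells depend, was not called, at 354, 201 and 284 CPM, with library 2 the lowest. Cxcr4, which holds cells in bone marrow, was at 182, 179 and 97 CPM. The follicular list had 1 of 7 genes called, Ighd in library 2 at 2.10-fold, which was 1.77-fold without mixed members and then short of the threshold. Fcer2a (58.1, 99.8 and 49.4 CPM) and Cd55 (117, 195 and 107 CPM) were highest in library 2 without passing the fold. Of the marginal zone list, S1pr3 was higher in library 2 (4, 15 and 12 UMIs) and Fcrl5, an inhibitory Fc receptor-like protein, in library 3 at 6.58, 6.93 and 23.8 CPM. The B1, germinal centre and memory lists, with 2, 3 and 1 tested genes, had 0 called.

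MHC class II genes were highest in library 2. H2-Aa stood at 625 (575 to 678), 2121 (2016 to 2230) and 844 (800 to 889) CPM in libraries 1, 2 and 3, and had a UMI in 66.3%, 91.6% and 72.9% of members. H2-Eb1, a beta chain, was at 331, 1200 and 550 CPM, and H2-Ab1, the partner of H2-Aa, at 535, 1379 and 662 CPM. Of the 11 genes of the list, 0, 5 and 0 were called higher in libraries 1, 2 and 3, and 0 were called lower. The 5 were H2-Aa, H2-Ab1, H2-Eb1, H2-Ob and H2-DMb1, the last 2 of which belong to the molecules that steer peptide loading. All 11 had their highest CPM in library 2, Cd74 (3563, 5671 and 3933 CPM) and Ciita, the master regulator of the class (54.8, 105 and 56.5 CPM), included. The list's median was -0.51, 0.92 and -0.36.

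The uneven share of cycling cells moved with this difference. The MHC class II list made up a median of 0.704%, 1.64% and 0.884% of a member's UMIs in libraries 1, 2 and 3. In cycling members it was 0.504%, 0.412% and 0.518%, and in non-cycling members 0.882%, 1.77% and 1.06%. Among non-cycling members 2 of 11 genes passed the fold in library 2 (median 0.72, against 2.16% of all genes tested in them), and all 11 were still highest there, with H2-Aa at 904, 2861 and 1344 CPM. Among cycling members 0 of 11 were called (2.76% of all genes were higher in library 2), and the median was 0.07, 0.13 and -0.05. Among members with a UMI of Ighd, 1 of 11 was higher in library 2, against 2.57% of all genes. The count of 5 was thus smaller among non-cycling members, while the order of the libraries was the same there. In pro-B and pre-B cells 9 genes were tested, and 0 were higher in library 2 (111 of all 9800 genes were). There 2 were higher in library 3 (4.6% of all genes), 7 were highest in it, and the median was -0.90, 0.07 and 0.70. Among all filtered barcodes outside the members, T cells and precursors included, 1 of 11 genes was higher in library 2 (4.32% of all genes). Their median was 0.48, and 6 of 11 genes were highest in library 2. In T cells 8 genes were tested, of which 4 were higher in library 2 (2.85% of all genes) and all 8 were highest there by CPM. The share of T cells with a UMI of Cd74, given above, was by contrast highest in library 3, whose T cells were the deepest. With each T cell thinned to equal depth, as for Ighd, the share was 2.05%, 4.38% and 2.42% in libraries 1, 2 and 3. It was then highest in library 2, with overlapping intervals.

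**Figure D4:**
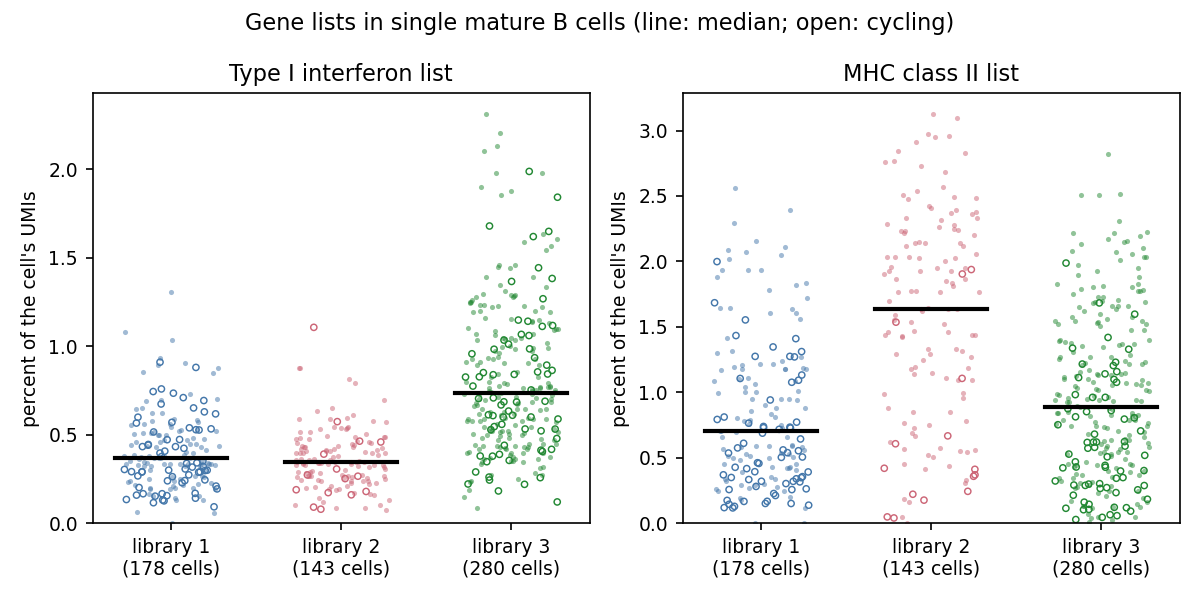
Share of a cell's UMIs (vertical axis, percent) in the type I interferon list (left) and the MHC class II list (right), with 1 point per mature B cell by library, open circles for cycling cells and a black line at the median. Library 3 has the highest interferon median (0.734%) and library 2 the highest MHC class II median (1.64%), and the cells of the libraries overlap in both.

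Of the lists of B cell genes and responses, that of type I interferon had the most calls. Ifi27l2a, an interferon-induced mitochondrial protein, stood at 621 (571 to 674), 484 (434 to 537) and 2225 (2154 to 2297) CPM in libraries 1, 2 and 3. Xaf1, which acts in cell death, was at 15.3 (8.39 to 25.8), 9.7 (3.9 to 20) and 61.9 (50.5 to 75) CPM. Irf7, a transcription factor that amplifies interferon production, stood at 14.3 (7.59 to 24.4), 9.7 (3.9 to 20) and 59.5 (48.4 to 72.4) CPM. In each of these genes libraries 1 and 2 lay far below library 3, and the intervals did not overlap with it. Of 36 tested genes of the list, 0, 0 and 17 were called higher in libraries 1, 2 and 3, while 6, 4 and 0 were lower. All 36 had their highest CPM in library 3. The list's median was -0.38, -0.86 and 1.47.

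The genes called higher in library 3 had several roles. Zbp1, a sensor of nucleic acids, was at 32.9, 31.9 and 102 CPM, a 3.11-fold distance to the nearest library. Oasl2, an oligoadenylate synthetase-like protein, was 3.57-fold, Usp18, which removes the ubiquitin-like protein ISG15 from its targets, 5.15-fold, and Xaf1 4.03-fold above the nearest library. Ifi213, of a family that binds DNA, was at 11, 9.7 and 46.4 CPM. Rtp4 and Parp14 were at 59.5 and 127 CPM in library 3. Others were Ifit3, Isg15, Oas1a, Oasl1, Ifi47, Phf11b and Herc6, each between 2.06-fold and 3.36-fold above the nearest library. Isg15, the ubiquitin-like modifier, was 2.12-fold above the nearest library over all members and 1.28-fold over unmixed ones. Genes that did not pass the fold were Ly6a (89.9, 202 and 370 CPM), Trim30a (99.8, 72.1 and 182 CPM), Ifi203 (259, 179 and 402 CPM) and Ly6e, which was nearly level at 1333, 1353 and 1413 CPM.

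**Figure D5:**
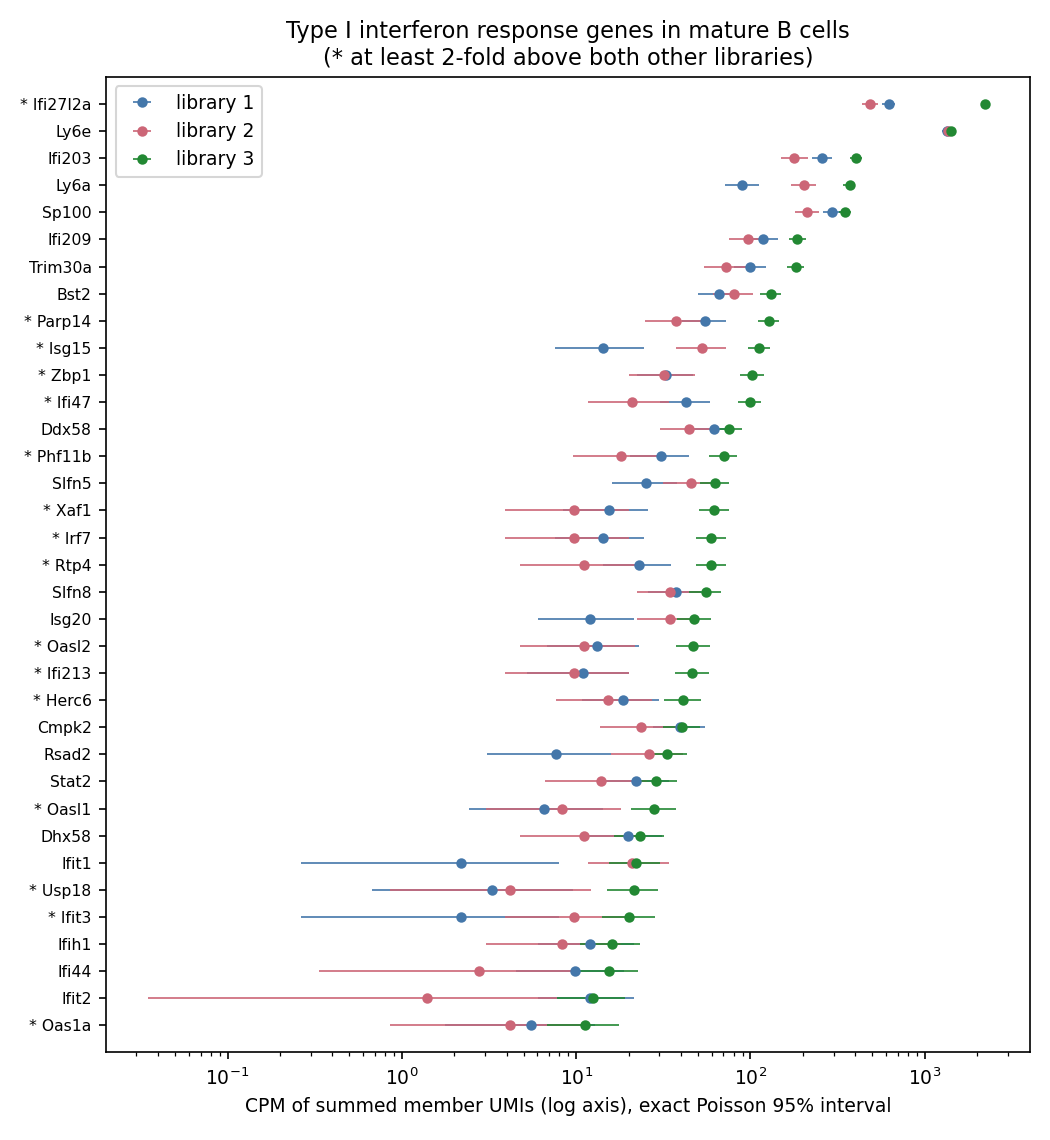
CPM of type I interferon response genes summed over mature B cells (horizontal axis, log scale) with exact Poisson 95% intervals for counting error, 1 colour per library; a star marks genes at least 2-fold above both other libraries. Library 3 has the highest value in every row, and Ifi27l2a is the most abundant at 2225 CPM.

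The difference was carried by many cells. Ifi27l2a had a UMI in 70.2%, 56.6% and 95.4% of members, and in 40.3%, 31% and 76.2% after thinning to 1000 UMIs. Zbp1 had one in 14%, 11.9% and 38.6%, and Parp14 in 22.5%, 14% and 45.4%. The whole list made up a median of 0.366%, 0.344% and 0.734% of a member's UMIs. The lower quartile in library 3, 0.508%, lay just under the upper quartile of library 1, 0.524%, and above that of library 2, 0.454%. The cells of the libraries overlapped. No barcode held more than 118 of the 3740 UMIs of Ifi27l2a or 5 of 100 of Irf7 in library 3. With each gene's highest barcode left out of each library, 20 genes of the list were higher in library 3.

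The pattern held in both divisions of the members. Among non-cycling members 13 of 29 tested genes were higher in library 3 (median 1.33, and 1.96% of all genes), and among cycling members 16 of 32 (median 1.31, and 1.33%). Without mixed members it was 15 of 33 (median 1.55, and 1.98%). The same was read in other cells. In pro-B and pre-B cells 26 of 35 genes were higher in library 3 (median 1.79), where 4.6% of all genes tested in these cells were higher. In T cells it was 6 of 38 (median 0.78, and 2.65%). Over all filtered barcodes outside the members, precursors and T cells included, it was 15 of 38 (median 1.19, and 1.46%). A higher level in library 3 was thus not limited to mature B cells, and no difference between these cell types was tested.

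The promoters of these genes were searched for the core of the interferon-stimulated response element, a DNA element of promoters that respond to interferon. The motif was GAAANNGAAA, searched on both strands (TTTCNNTTTC on the other), where N is any base and matches may overlap. Windows were those of RefSeq on GRCm38.p6, from 250 bases before to 50 after the annotated start. Of 36 tested genes of the list 27 matched a window by symbol, and 15 of these (55.6%) held the motif. Of the 17 genes higher in library 3, 11 matched and 5 (45.5%) held it, and of the 19 others 16 matched and 10 (62.5%) held it. Over all 32851 windows of the table the share was 3.44%, and over the 7481 matched genes tested in members 4.12%. A match is a description of the letters and not a binding site. The 5 genes higher in library 3 with a match are shown because they let the element be read in place. Each line is the 160 bases before the annotated start, 5′ to 3′ along the gene, with the motif in capitals.
Isg15 (chr4:156200819-156200978, minus strand): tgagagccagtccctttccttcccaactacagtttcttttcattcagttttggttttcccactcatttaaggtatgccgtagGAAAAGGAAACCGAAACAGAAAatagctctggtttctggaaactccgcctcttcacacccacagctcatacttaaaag
Ifit3 (chr19:34583369-34583528, plus strand): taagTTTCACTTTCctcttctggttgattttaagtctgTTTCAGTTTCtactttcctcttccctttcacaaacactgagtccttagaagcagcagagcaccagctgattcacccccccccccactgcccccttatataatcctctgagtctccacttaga
Oas1a (chr5:120907526-120907685, minus strand): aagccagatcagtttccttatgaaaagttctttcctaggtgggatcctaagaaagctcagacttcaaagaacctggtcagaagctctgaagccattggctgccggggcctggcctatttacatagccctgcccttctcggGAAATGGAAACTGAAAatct
Ifi213 (chr1:173599273-173599432, minus strand): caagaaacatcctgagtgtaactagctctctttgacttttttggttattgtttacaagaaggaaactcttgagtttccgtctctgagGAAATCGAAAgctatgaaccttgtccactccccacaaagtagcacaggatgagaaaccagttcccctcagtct
Phf11b (chr14:59341331-59341490, minus strand): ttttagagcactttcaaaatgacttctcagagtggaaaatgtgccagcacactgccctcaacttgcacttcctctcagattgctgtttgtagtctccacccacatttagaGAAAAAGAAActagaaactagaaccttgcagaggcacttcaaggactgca

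In Isg15 3 matches overlapped in 1 run that began 78 bases before the start. In Ifit3 the 2 matches, on the other strand, began 156 and 122 bases before it. In Oas1a the 2 overlapping matches began 20 bases before the start, and Ifi213 and Phf11b had 1 match each, 73 and 50 bases before it. The windows of Irf7, Xaf1, Oasl1, Oasl2, Ifi47 and Herc6 did not hold these letters.

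A related group holds GTPases and other targets of interferon gamma. Of 16 tested genes, 0, 0 and 4 were higher in libraries 1, 2 and 3 (medians -0.54, -0.55 and 0.91), and 1, 1 and 0 were lower. The 4 were Gbp5, Igtp, Tgtp2 and Cxcl10, a chemokine for activated T cells. Cxcl10 had 2, 2 and 48 UMIs, or 2.19, 2.77 and 28.6 CPM, in 7.14% of members of library 3. Without mixed members 1 of 14 was higher in library 3. Irf1, an early interferon gamma target, was at 120, 99.8 and 156 CPM, and Cd274, the checkpoint ligand PD-L1, at 13.2, 34.7 and 17.8 CPM. Of 14 genes of MHC class I presentation, 0 were higher in any library and 1, Nlrc5, which drives that class, was lower in library 2 at 45, 19.4 and 47 CPM. B2m, the constant chain, was at 1430, 1465 and 1575 CPM. Psmb8 and Psmb9, subunits of the immunoproteasome, were at 261, 258 and 368 CPM and at 203, 137 and 264 CPM.

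Chaperones were highest in library 3 at smaller distances. All 12 tested genes of the heat shock list had their highest CPM there, and 2, Hsph1 (30.7, 20.8 and 73.2 CPM) and Hspa1b (7, 1 and 30 UMIs), were called, with 2 lower in library 2. The list's median was -0.07, -0.86 and 0.78. Dnaja1, a co-chaperone of the HSP70 family, was at 219 (190 to 252), 132 (107 to 161) and 436 (405 to 469) CPM, 1.99-fold above the nearest library and 2.33-fold without mixed members. Hspa8, the most abundant after Hsp90ab1, was at 1039, 779 and 1498 CPM, and Hspa5, the chaperone of the endoplasmic reticulum, at 539, 270 and 644 CPM. In all other filtered barcodes, precursors and T cells included, 2 of 14 genes were higher in library 3 (1.46% of all genes) and all 14 were highest there. In T cells 6 of 14 were higher in library 3 (median 1.21, and 2.65% of all genes). In pro-B and pre-B cells it was 4 of 14 (median 0.75, and 4.6%). Higher chaperone levels in library 3 were thus not limited to mature B cells.

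The cell cycle list was lowest in library 2. Of 15 genes, 0 were higher in any library and 4 were lower in library 2, which were Mki67, Top2a, Mcm6 and Stmn1. The medians were 0.32, -0.61 and 0.40. Mki67 and Top2a also define the cycling members, so the list is no separate evidence on their share. Immediate-early genes, which respond within minutes to receptor signals and to tissue handling, were close to level: of 21, 0 were higher and 1 was lower, Egr1 in library 3 at 320, 297 and 146 CPM. Cd69, an early activation marker, was at 140, 95.6 and 152 CPM, and Myc at 60.3, 107 and 78.5 CPM. Of 15 NF-kB genes, Bcl2a1d was higher in library 2 (4, 19 and 5 UMIs) and Nfkbie lower in it (57, 22 and 121 UMIs). Of 9 tested glucocorticoid response genes 0 were called, with Tsc22d3 at 159, 148 and 144 CPM. Of 9 tested Toll-like receptor genes 0 were called, and Tlr9 had 2, 2 and 7 UMIs. Of 9 survival and death genes, 1, 1 and 0 were higher in libraries 1, 2 and 3, and 0, 2 and 1 were lower. Bcl2l1, an inhibitor of cell death, was higher in library 2 (4, 20 and 14 UMIs) and Bbc3, which promotes it, in library 1 (19, 3 and 15 UMIs). Besides Bbc3, Cdkn1a, an inhibitor of the cell cycle, was lower in library 2 (67, 19 and 93 UMIs), and Pmaip1, which promotes cell death, in library 3 (27, 18 and 19 UMIs). Mcl1, on which B cell survival depends, was at 687, 538 and 597 CPM.

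The largest folds over all genes were mostly not those of B cells. In library 2, Bglap and Bglap2, the osteocalcin genes of bone-forming cells, were 130-fold and 183-fold above the nearest library, with 980 of 1001 and 538 of 549 UMIs in 1 barcode. Cxcl12, a chemokine of marrow stroma, had 271 of 278 UMIs in 1 barcode there, and Adipoq, a hormone of fat cells, all 48. In library 3, Prss34 and Mcpt8, proteases of basophils, had 472 of 517 and 217 of 269 UMIs in 1 barcode. Coch, a matrix protein of the cochlea, had 2, 33 and 456 UMIs. Without mixed members, library 3 and the nearest library stood level for Coch, at a fold of 0.999. In library 1, Fn1, Fcnb and Ccr2, genes of myeloid cells, were 6.69-fold, 4.21-fold and 3.39-fold above the nearest library. Of these, Fn1 was at 1.53-fold and Ccr2 at 1.48-fold without called doublets. Hivep3, a zinc finger protein, and Mtm1, a lipid phosphatase, were less bound to few barcodes: Hivep3 had 52, 14 and 30 UMIs in 39, 10 and 24 members, and Mtm1 49, 15 and 28 UMIs in 39, 15 and 24 members. Irf7, Xaf1 and Ifi27l2a, in 66, 75 and 267 members of library 3, were the genes of the interferon list among the 10 largest folds of that library once genes under 50 UMIs in sum, or under 50 CPM in every library, were set aside. Usp18, at 21.4 CPM, lay under that limit.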

How the data were processed

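The deposited table holds whole-number UMI counts per gene and barcode, made by the authors with Cell Ranger 7.1.0, per the file headers. The submitters' processing notes name the build GRCm39. Promoter windows came from RefSeq on GRCm38.p6. Members and lists were chosen with earlier results of these data known.

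Counts of members were summed per library and scaled to CPM. A sum of 0 took a floor of 3 counts in folds. The libraries held 132576349, 93048140 and 146324872 UMIs, and their members 912050, 721413 and 1681080. With 1 sample per group there was no test. Doublets were called by scrublet (scanpy 1.11.5). Further tools were Python 3.11.15 with numpy 2.4.6, scipy 1.17.1, pandas 2.3.3 and matplotlib 3.10.9. TMM factors came from edgeR 4.0.16 in R 4.3.3.

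Genes were named by rule: from each list up to 6 of the highest CPM and those past the fold, and over all genes the largest folds (at least 50 CPM in a library, 50 UMIs in sum). Other list genes were picked after their values were seen, as were the cycling and mixed classes. Alternatives changed the selection, filters, scaling and fold. Some genes are not reported here, in text or figures.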

Additional observations from a re-analysis of the deposited data

How the results depend on the processing

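No paired analysis was possible because each group is 1 library. The share of mature B cells in libraries 1, 2 and 3 became 0.604%, 1.15% and 1.55% when Ighd was required, and 0.585%, 0.601% and 1.499% when the rule was applied to 1000 thinned UMIs. Without mixed members it was 0.811% in library 1 and 2.32% in library 3, and with 2 UMIs of Ms4a1 it was 1.23% in library 2. Cycling shares after thinning were 17.0%, 3.52% and 11.6%.

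Counts of genes past the fold moved with the settings. Genes higher in libraries 1, 2 and 3 numbered 78, 115 and 68 with at least 50 summed UMIs and 759, 744 and 437 at a fold of 1.5. Lower ones numbered 121, 206 and 56, and 621, 1064 and 618. With at least 10 UMIs, 548 were higher in library 2, 485 lower in library 1 and 302 lower in library 3. By the mean of per-cell CPM, 303 were higher in library 1, 578 lower in library 2 and 249 lower in library 3. After thinning, 90 and 92 were higher in libraries 2 and 3 and 117 lower in library 1.

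The following settings were chosen after seeing the data. Without mixed members 178 genes were higher in library 2 and 196 lower in library 1. Without each gene's highest barcode 191 were higher in library 2 and 101 lower in library 3. Among non-cycling members 135 were higher and 222 lower in library 2.

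The interferon count of 17 of 36 in library 3 was 11 of 20 tested after thinning, which left fewer genes to test, and between 13 and 23 under the other settings. Of 504 recomputed folds of named genes, 444 kept their side of the threshold and direction, 30 fell short of the threshold, 26 passed it and 4 reversed. Without mixed members Coch was at 0.999, Apoe in library 2 at 0.817 and Jchain in library 1 at 0.00994 of the nearest library, and Jchain was at 0.0188 without called doublets. For Jchain, the barcodes with 378 and 90 of the 477 UMIs in library 1 were called doublets, and both settings left them out. The cause of the other shifts was not tested. Ighd in library 2 fell from 2.10-fold to 1.77-fold without mixed members, short of the threshold. At these sums, genes under 20 UMIs were not compared.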
